A study of Rattus norvegicus with 42 samples.

Results

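The guidance genes are the ligands and receptors that steer growing axons, migrating cells and vessels. They were chosen by gene symbol alone: ephrins (Efna, Efnb), Eph receptors (Epha, Ephb), semaphorins (Sema), plexins (Plxn), neuropilins (Nrp1, Nrp2), Slits, Robos, netrins (Ntn), Unc5 receptors and Dcc. The symbol rule uses no measured value, but it was set with earlier results of these data known. Of 14218 genes with a probe set assigned to a single gene, 56 carried such a symbol. Each gene was read from its probe set with the highest mean.

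Ephrins are membrane-bound ligands; ephrin-A is held by a lipid anchor and ephrin-B by a transmembrane segment, and both bind Eph receptor tyrosine kinases on neighbouring cells. Class 3 semaphorins are secreted and act through complexes of a neuropilin and a plexin, while most other semaphorins are membrane proteins that bind plexins directly. Slits are secreted ligands of Robo receptors, and netrins are secreted ligands of Dcc and the Unc5 receptors. In the developing kidney Slit2 and Robo2 are known for limiting where the ureteric bud forms, and Sema3 and neuropilin signals for shaping its vessels.

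RNA was measured in metanephric mesenchyme of rat embryos at embryonic day 13.5, dissected free of the ureteric bud after a short trypsin and DNase digestion. This is the tissue that forms nephron epithelium when induced. There were 42 arrays in 21 groups of 2 biological replicates: freshly dissected mesenchyme, uninduced culture of 1 or 2 days, and induced culture with one of LIF, NGAL and ANX, harvested daily from day 1 to day 5 and on day 7. LIF is leukemia inhibitory factor, a secreted cytokine, NGAL is the lipocalin neutrophil gelatinase-associated lipocalin, and no label says what ANX stands for. All cultures, uninduced ones included, grew on collagen-coated filters in a defined medium whose additives included an FGF, a TGF, prostaglandin, the thyroid hormone T3, dexamethasone, insulin, selenium and transferrin. Uninduced culture ended at day 2, so no control exists for days 3 to 7. The labels name neither the strain nor whether a sample pools several embryos.

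Values are log2 intensities. A gene counted as measured when its highest group mean exceeded log2 5.79 (intensity 55.2), and 47 of the 56 guidance genes did; 34 lay above it in all 21 groups. The 9 below it everywhere were Dcc, Epha5, Epha8, Ntn5, Plxnc1, Robo3, Sema3b, Sema4d and Unc5a, for which these arrays give only a bound. Differences were tested with limma over the 11388 measured genes, and a gene is called when its Benjamini-Hochberg adjusted p is under 0.05. Replicate arrays of a group correlated at 0.936 to 0.995. A spiked-in control RNA, dap, gave a log2 signal ratio of its 3′ to its 5′ probe sets of 0.77 to 2.35, a sign of labelling quality. Of 12 nephron progenitor markers 9 were measured, with means of 9.11 and 9.23 in the fresh arrays. In whole tissue, fewer cells of a type and less RNA per cell cannot be told apart.

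Guidance genes varied more across these groups than most genes did. The range of the 21 group means exceeded 1 on the log2 scale for 27 of the 47 measured guidance genes (57.4%), against 3554 of 11388 measured genes (31.2%), with medians of 1.24 and 0.73. No test was made of this difference. Means below the threshold were not raised to it for these ranges, and 13 of the 47 genes lay below it in some group. Taken so, Epha3 had the widest range (3.74), then Sema3d (3.39), Robo2 (2.77), Epha4 (2.75), Slit3 (2.52) and Sema5a (2.47). The lowest means of Epha3 (ANX day 5) and Sema3d (LIF day 1) lay below the threshold. Part of their range is therefore not measured, and their rank above Robo2 and Epha4 is not settled. The narrowest were Epha10 (0.35), Plxna3 (0.39) and Plxnb2 (0.46). Among the 7 measured plexins, the signalling receptors of semaphorins, Plxnd1 had a range above 1 (2.09), and the others lay at 0.79 or less.

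**Figure D1:**
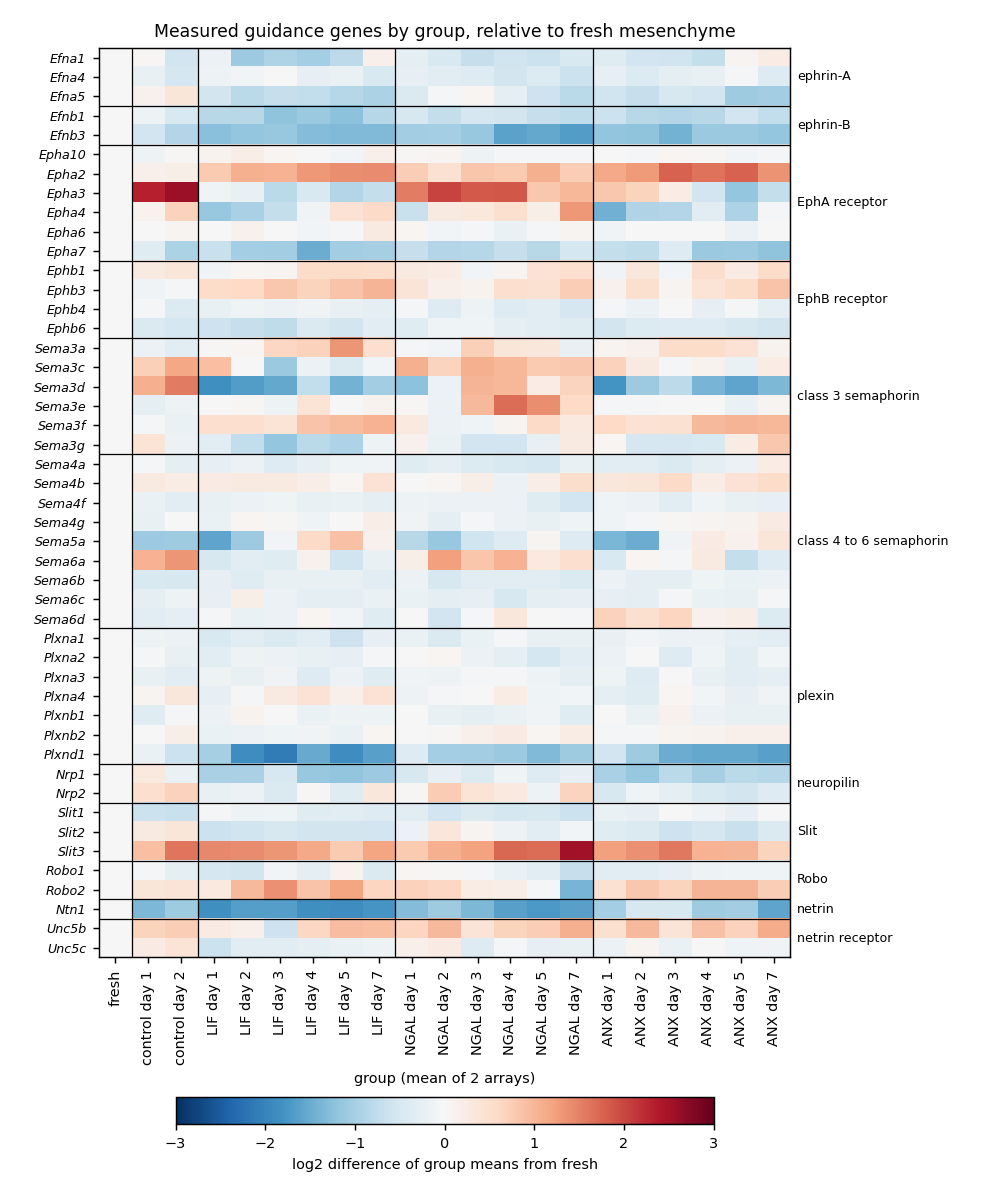
Heat map of the 47 measured guidance genes (rows, grouped by family) in 21 groups (columns); colour is the log2 difference of a group's mean of 2 arrays from the fresh mean. Epha3 lies above fresh without inducer, with NGAL and on days 1 and 2 of ANX. Sema3d lies above fresh without inducer and below it under LIF and ANX. With NGAL Sema3d lies below fresh on days 1 and 2 but above it from day 3. Ntn1 and Efnb3 lie below fresh in every cultured group.

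After 1 day of culture without inducer Epha3 was higher, and Ntn1 and Efnb3 lower, than in fresh tissue. Epha3, a receptor for ephrin-A ligands, read 5.08 and 5.32 in the fresh arrays, 7.9994 and 7.08 after 1 day and 7.51 and 8.04 after 2 days. Fresh arrays thus lay below the threshold, and all 4 uninduced arrays lay above it. It rose by 2.34 (SE 0.48, adjusted p = 0.00367) after 1 day and by 2.58 (SE 0.48, adjusted p = 0.000588) after 2 days. With the fresh mean set to the threshold the rises are 1.75 and 1.99. Ntn1, the secreted ligand netrin-1, read 7.32 and 7.14 in fresh tissue, 5.61 and 6.13 after 1 day and 6.14 and 6.17 after 2 days. It fell by 1.36 (SE 0.29) and by 1.07 (SE 0.29), and fresh and cultured arrays did not overlap. Efnb3, a transmembrane ephrin, fell by 0.57 (SE 0.17) after 1 day and by 0.89 (SE 0.17) after 2 days. These 3 were the guidance genes called after 1 day, 1 higher and 2 lower, which is 6.38% of the family against 6.06% of all measured genes (3.8% higher, 2.26% lower). The count was 0 when fresh replicate 1 or the uninduced day 1 replicate 1 was left out.

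By day 2 of uninduced culture 9 guidance genes were called, 4 higher and 5 lower (19.1%, against 22.2% of all measured genes, 9.47% higher and 12.7% lower). Slit3, a secreted Robo ligand, read 7.24 and 7.12 fresh and 8.73 and 8.85 on day 2, a rise of 1.60 (SE 0.37, adjusted p = 0.0039). The secreted semaphorins Sema3d and Sema3c rose by 1.55 (SE 0.54) and 1.16 (SE 0.36). Sema3d read 6.50 and 5.75 fresh and 7.89 and 7.46 on day 2. Sema5a, a transmembrane semaphorin, fell by 1.06 (SE 0.35), the ephrin receptor Epha7 by 0.94 (SE 0.28) and Slit1 by 0.66 (SE 0.22). Slit1 lies near the threshold: its fresh mean was 5.78 and its day 2 mean 5.13, so both are below it and the size of its fall is not measured. Leaving out fresh replicate 1, or any 1 of the pair of day 2 control arrays, brought the count to 3, and leaving out fresh replicate 2 brought it to 4. With the dap ratio as a covariate the count was 5; that ratio was 1.97 and 2.04 in the day 2 control arrays and 1.06 and 1.08 in the fresh arrays. The probe set for 5S rRNA, a sign of RNA quality, read 10.10 and 10.32 in the day 2 control arrays and 6.32 and 6.62 in the fresh arrays. The 3′ to 5′ log2 ratio of actin, from the sample's own RNA, was 1.57 and 1.55 against 0.91 and 0.76. The part of labelling or RNA quality in the result was not tested. Skeletal muscle markers moved too, with 5 of 7 measured markers higher on day 2 (summed level as a mean of log2 values, 9.06 and 9.33 against 6.16 and 6.23), and 7 of 13 endothelial markers lower. Their part in these differences was not tested.

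With LIF and with ANX, most guidance genes called against uninduced culture over days 1 and 2 were lower. With LIF 18 of 47 guidance genes were called (38.3%), against 24% of all measured genes. Of these 4 were higher and 14 lower, while among all genes 11.4% were higher and 12.6% lower. With ANX 13 were called (27.7%, against 20.3% of all measured genes), 3 higher and 10 lower, with 11.2% and 9.12% of all genes called in those directions. The median difference of the 47 genes was -0.20 with LIF and -0.05 with ANX, beside 0.03 over all measured genes in both. Both comparisons share the same 4 control arrays. The count for LIF ran from 11 without LIF day 2 replicate 1 to 16 when arrays were left out one at a time, and for ANX from 9 to 15.

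**Figure D2:**
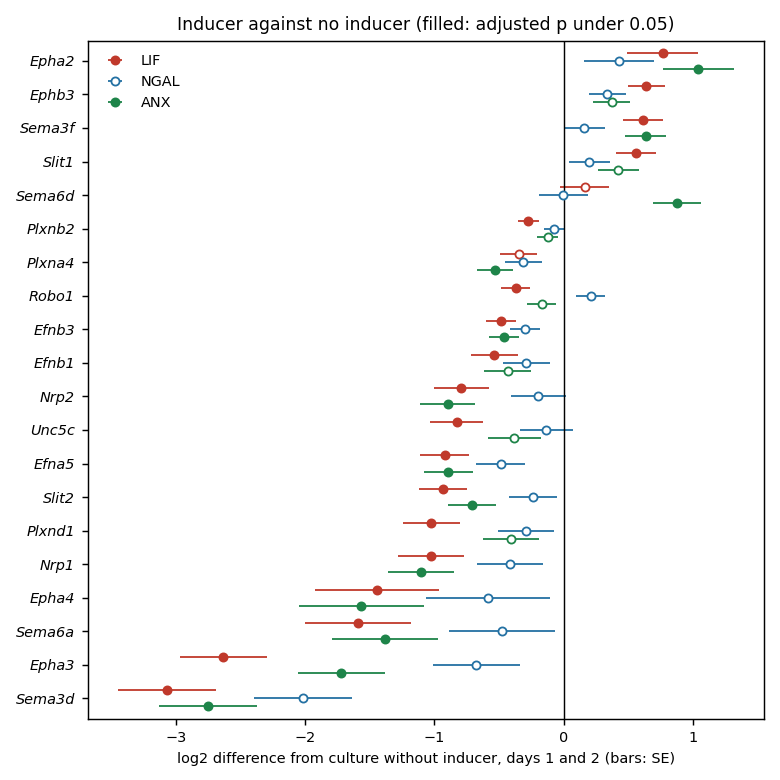
Log2 difference from culture without inducer, as the mean of days 1 and 2 (4 arrays against 4), for the 20 guidance genes called with LIF or ANX; points are estimates, bars are SE, and filled points have adjusted p under 0.05. Sema3d (-3.07 with LIF) and Epha3 (-2.64) lie farthest from 0, and no NGAL point is filled.

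Among the class 3 semaphorins, Sema3d was far lower under both inducers. Without inducer it read 7.45 and 6.94 on day 1 and 7.89 and 7.46 on day 2. With LIF it read 4.44 and 4.13, then 4.11 and 4.79. The ANX arrays read 4.03 and 4.63, then 5.05 and 5.03. Every LIF and ANX array thus lay below the threshold and every uninduced array above it. The difference was -3.07 (SE 0.38, adjusted p = 1.11e-05) with LIF and -2.75 (SE 0.38, adjusted p = 3.59e-05) with ANX, and -1.65 in both when means below the threshold are set to it. Sema3f, another secreted semaphorin, was higher by 0.62 (SE 0.16, adjusted p = 0.00673) with LIF and by 0.64 (SE 0.16, adjusted p = 0.00642) with ANX. Its 4 uninduced arrays read 7.71 to 8.0045 and its LIF arrays 8.45 to 8.58, with no overlap. A second probe set of Sema3f gave a difference of 0.96 with LIF. Sema3a, Sema3c, Sema3e and Sema3g were not called with either inducer.

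Both neuropilins, the co-receptors of class 3 semaphorins, were lower. Nrp1 was among the brightest guidance genes, at 10.94 and 11.11 on day 1 and 10.61 and 10.46 on day 2 without inducer. With LIF it read 9.67 and 9.84 on day 1 and 9.60 and 9.91 on day 2, below all 4 control arrays. With ANX it read 9.54 and 9.98, then 9.55 and 9.64. The differences were -1.03 (SE 0.26, adjusted p = 0.00537) and -1.10 (SE 0.26, adjusted p = 0.00381). A second Nrp1 probe set gave -1.35 with LIF. Nrp2 differed by -0.79 (SE 0.21) with LIF and by -0.90 (SE 0.21) with ANX; its other, dimmer probe set stayed below the threshold in every group (highest group mean 4.74). Among plexins, Plxnd1, the receptor that binds Sema3e without a neuropilin, differed by -1.02 (SE 0.22, adjusted p = 0.00169) with LIF. It read 7.65, 7.29, 7.01 and 7.04 without inducer and 6.68, 6.64, 5.65 and 5.93 with LIF. With ANX it differed by -0.41 (SE 0.22, adjusted p = 0.191). Plxnb2 differed by -0.27 (SE 0.08) with LIF and Plxna4 by -0.53 (SE 0.14) with ANX, and Plxna1, Plxna2, Plxna3 and Plxnb1 were called with neither.

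Of the 9 measured class 4 to 6 semaphorins, Sema6a was lower under both inducers and Sema6d higher with ANX. Sema6a, a transmembrane semaphorin, read 10.26, 9.29, 9.95 and 10.19 without inducer and 7.89, 8.61, 7.83 and 8.99 with LIF, a difference of -1.59 (SE 0.41, adjusted p = 0.00677). With ANX it read 8.23, 8.35, 8.24 and 9.33, one of which lies above a control array, and differed by -1.39 (SE 0.41, adjusted p = 0.0192). The ANX call was lost in 4 of the 8 fits that left out an array. A second Sema6a probe set gave -1.24 with LIF. Sema6d read 7.88 to 8.27 without inducer and 8.73 to 9.13 with ANX, so the groups did not overlap, and it was higher by 0.88 (SE 0.19, adjusted p = 0.00197).

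Among Eph receptors, Epha3 and Epha4 were lower and Epha2 higher. Epha3 lay below its uninduced level in every LIF array (4.72, 5.42, 4.97 and 4.97, against 7.08 to 8.04) and differed by -2.64 (SE 0.34, adjusted p = 1.35e-05), or -1.87 with LIF means set to the threshold. With ANX it read 5.07 and 6.93 on day 1 and 5.70 and 6.04 on day 2, a difference of -1.72 (SE 0.34, adjusted p = 0.000977). A second Epha3 probe set gave -2.80 with LIF. Epha4, which binds both ephrin classes, differed by -1.45 (SE 0.48) with LIF and by -1.57 (SE 0.48) with ANX. One uninduced day 1 array read 8.13, inside the range of the induced arrays, and each of these calls was lost in 5 of 8 fits with an array left out. Epha2, a receptor found on many epithelia, read 6.47 to 6.64 without inducer, 7.16 to 7.55 with LIF and 7.49 to 7.73 with ANX. Its differences were 0.77 (SE 0.27, adjusted p = 0.0427) and 1.04 (SE 0.27, adjusted p = 0.00892), and the LIF call was lost in all 8 fits with an array left out. Ephb3 was higher with LIF by 0.64 (SE 0.145, adjusted p = 0.00264), with arrays at 7.63 to 7.98 against 6.98 to 7.36. Epha6, Epha7, Epha10, Ephb1, Ephb4 and Ephb6 were called with neither inducer.

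Ephrins, the ligands of these receptors, were called only downwards. Efna5 read 9.16, 8.98, 9.32 and 9.27 without inducer and 8.44, 8.34, 8.04 and 8.22 with LIF. It differed by -0.92 (SE 0.19, adjusted p = 0.00128) with LIF and by -0.89 (SE 0.19, adjusted p = 0.00197) with ANX, with no overlap in either. Efnb3 differed by -0.48 (SE 0.12) and -0.46 (SE 0.12). Efnb1 differed by -0.54 (SE 0.18, adjusted p = 0.0352) with LIF; this call was lost in 7 of 8 fits with an array left out, and a second Efnb1 probe set gave 0.21. Efna1 and Efna4 were not called.

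Slit2, the secreted Robo ligand, was lower while Slit3 showed no call. Slit2 read 8.5014, 8.30, 8.55 and 8.42 without inducer, 7.28, 7.69, 7.33 and 7.74 with LIF and 7.53, 8.0017, 7.48 and 7.93 with ANX. The groups did not overlap, and the differences were -0.94 (SE 0.19, adjusted p = 0.00102) and -0.71 (SE 0.19, adjusted p = 0.00983). A second Slit2 probe set gave -1.31 with LIF. Slit3 differed by 0.18 (SE 0.26) with LIF and 0.04 (SE 0.26) with ANX. Slit1 was called higher with LIF (0.56, SE 0.16), but both group means (5.69 and 5.13) lie below the threshold. Robo1 differed by -0.37 (SE 0.11, adjusted p = 0.0193) with LIF, a call lost in 4 of 8 fits with an array left out, and Robo2 was called with neither inducer. Unc5c, a netrin receptor, read 8.67 to 8.90 without inducer and 7.49 to 8.35 with LIF, a difference of -0.83 (SE 0.21, adjusted p = 0.00537). Netrin-1 itself and Unc5b were called with neither.

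**Figure D3:**
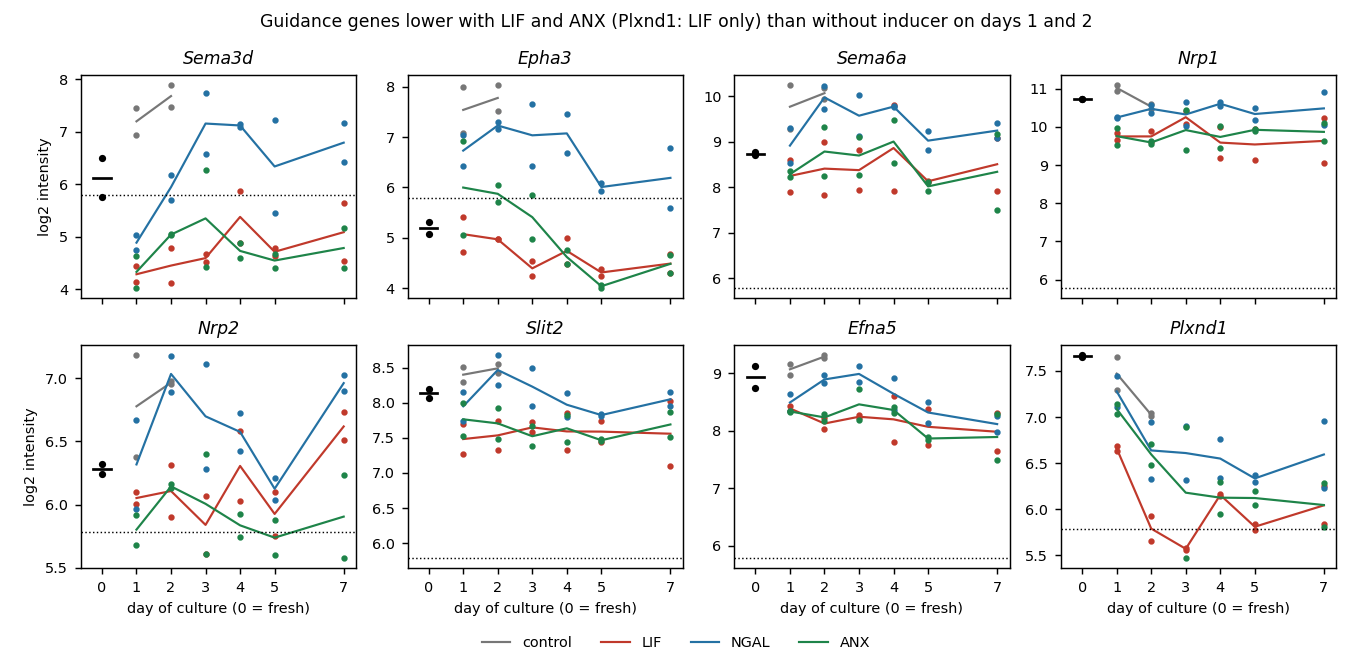
Log2 intensity (vertical axes) by day of culture for 8 guidance genes lower with LIF or ANX than without inducer on days 1 and 2; points are arrays, lines join group means, the black bar is the fresh mean and the dotted line is the threshold at 5.79. Sema3d and Epha3 show the LIF line below the threshold on most days and the NGAL line above it.

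Renal stroma markers were lower in the same arrays. Of 13 measured stroma genes, 8 were called lower with LIF and 7 with ANX and none higher, with medians of -1.08 and -0.80. Their mean level was 10.03 to 10.13 in the 4 uninduced arrays, 8.54 to 9.33 with LIF and 8.84 to 9.61 with ANX. The collagen genes Col1a1 (-2.30, SE 0.66) and Col1a2 (-1.68, SE 0.33) and the proteoglycan genes Dcn (-2.45, SE 0.60) and Lum (-2.82, SE 0.72) led with LIF. Endothelial markers were lower in part, 7 of 13 with LIF, while with ANX 4 were lower and 2 higher. Nephron epithelium markers were higher, 5 of 12 with LIF and 4 of 12 with ANX. Skeletal muscle markers had medians of -1.84 with LIF and -1.65 with ANX, with 2 and 1 of 7 called lower. Their mean level was 9.06 and 9.33 in the uninduced day 2 arrays, 6.96 to 7.10 on day 2 of LIF and 6.80 to 7.10 on day 2 of ANX. On day 1 it was 7.09 to 7.41 without inducer, 6.65 to 6.84 with LIF and 6.63 to 6.80 with ANX. Neuron and Schwann cell markers had day 1 mean levels of 6.41 to 6.52 without inducer. They were at 6.90 to 6.93 with LIF and 6.72 to 6.79 with ANX. Their day 2 levels, in that order, were 6.57 to 6.85, 6.80 to 7.07 and 6.92 to 7.09. Nephron progenitor markers on day 2 were at 8.40 to 8.56, 8.92 to 9.15 and 8.65 to 8.88. Macrophage markers on day 2 were at 6.71 to 6.75, 6.07 to 6.13 and 5.93 to 6.08. The 5S rRNA signal was 7.56 to 10.32 in the 4 uninduced arrays, 7.00 to 8.70 with LIF and 7.02 to 7.47 with ANX. What part these cell types and this sign of RNA quality have in the guidance gene differences was not tested.

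With NGAL no guidance gene was called against uninduced culture over days 1 and 2. The same held for all 11388 genes (0%; 0% higher, 0% lower), where 799 genes, 5 of them guidance genes, had an unadjusted p under 0.05. Sema3d came closest: it read 5.02, 4.75, 5.70 and 6.18 with NGAL, below all 4 control arrays, and differed by -2.02 (SE 0.38, adjusted p = 0.101). It was called with array weights (adjusted p = 0.0183), when only the 8 arrays compared were fitted (adjusted p = 0.0221), and without day 1 control replicate 2 (adjusted p = 0.0337). Its adjusted p was 0.145 to 0.608 when any other of the 8 arrays was left out. The array weights were equal for both arrays of each group, so they cannot tell a poor array from its partner. Epha3 differed by -0.68 (SE 0.34), Nrp1 by -0.42 (SE 0.26), Slit2 by -0.24 (SE 0.19), Epha2 by 0.43 (SE 0.27) and Sema3f by 0.16 (SE 0.16). All of these lie between 0 and the LIF value, and the LIF and NGAL differences share the same control arrays. Not every guidance gene did so: Robo1 differed by 0.21 (SE 0.11) with NGAL, while its difference with LIF was negative.

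Because a call with LIF and none with NGAL does not show that they differ, the inducers were also compared directly over days 1 and 2, where the control arrays cancel. LIF against NGAL gave 5 guidance genes, all lower with LIF (5.17% of all measured genes were called). Epha3 differed by -1.96 (SE 0.34, adjusted p = 0.0013), or -1.19 with means set to the threshold. The secreted ligand Slit2 differed by -0.70 (SE 0.19, adjusted p = 0.03) and its receptor Robo1 by -0.58 (SE 0.11, adjusted p = 0.00368). Robo1 read 7.38, 7.51, 7.42 and 7.40 with LIF and 7.98, 8.05, 8.19 and 7.81 with NGAL, with no overlap. Unc5c (-0.69, SE 0.21) and Plxnd1 (-0.73, SE 0.22) completed the set. LIF against ANX gave Ntn1 (0.623% of all genes called), with arrays of 5.44, 5.34, 5.64 and 5.53 against 6.02, 6.41, 6.40 and 7.11, a difference of -1.0004 (SE 0.20, adjusted p = 0.0169), or -0.70 floored at the threshold. NGAL against ANX gave Sema6d (2.12% called), lower with NGAL by a difference of -0.88 (SE 0.19, adjusted p = 0.012). Leaving out 1 array at a time kept Epha3 and Robo1 in all 8 fits of LIF against NGAL, while the count went as low as 2; Slit2 was called in 4 of these fits, Unc5c in 3 and Plxnd1 in 1. In the other pairs it fell to 0.

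The promoters of 4 genes that moved under the inducers are shown: Sema3d, Epha3 and Nrp1, which were lower with LIF and ANX, and Epha2, which was higher with ANX. Each run is the 250 bases just before the gene's start on its own strand, 5′ to 3′, from RefSeq (rat build GRCr8): Sema3d at chr4:23460972-23461221 (minus strand), Epha3 at chr11:14920426-14920675 (minus), Nrp1 at chr19:73256307-73256556 (plus) and Epha2 at chr5:158888379-158888628 (plus). Capitals mark the match to the STAT motif TTCNNNGAA.
Sema3d: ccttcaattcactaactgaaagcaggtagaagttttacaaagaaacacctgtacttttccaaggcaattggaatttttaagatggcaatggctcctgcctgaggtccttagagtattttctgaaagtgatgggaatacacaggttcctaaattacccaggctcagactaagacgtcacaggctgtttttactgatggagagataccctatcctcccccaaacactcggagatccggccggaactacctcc
Epha3: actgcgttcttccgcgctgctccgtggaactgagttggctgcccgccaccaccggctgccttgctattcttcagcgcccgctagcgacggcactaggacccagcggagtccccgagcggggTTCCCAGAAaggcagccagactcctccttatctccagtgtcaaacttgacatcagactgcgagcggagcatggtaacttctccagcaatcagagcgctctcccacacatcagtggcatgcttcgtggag
Nrp1: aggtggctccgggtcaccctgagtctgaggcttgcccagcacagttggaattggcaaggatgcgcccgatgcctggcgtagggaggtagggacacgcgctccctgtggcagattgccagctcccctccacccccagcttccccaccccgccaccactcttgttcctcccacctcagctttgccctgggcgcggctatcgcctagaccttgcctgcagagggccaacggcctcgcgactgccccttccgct
Epha2: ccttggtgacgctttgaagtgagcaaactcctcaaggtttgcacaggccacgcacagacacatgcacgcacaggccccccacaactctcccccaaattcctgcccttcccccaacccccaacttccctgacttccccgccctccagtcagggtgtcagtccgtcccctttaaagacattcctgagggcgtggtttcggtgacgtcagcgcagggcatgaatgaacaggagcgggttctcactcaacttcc
The Epha3 match starts at position -129 from the gene's start. Promoter windows were at hand for 42 of the 56 genes (43 windows, since Robo1 has several starts), and 1 of the 43 held TTCNNNGAA on either strand, against 7.67% of all 33469 windows of this length. The AP-1 motif TGANTCA was found in 1 window (Epha10), against 6.34% of all, and the TCF/LEF motif CTTTGAT in 1 (Sema3c), against 3.15%. No letters of one motif overlapped another in these 3 windows. Guidance gene windows had a median GC content of 61.2%, against 51.2% for all, while that of Sema3d was 44.8%. These matches are letters in a window and show no binding.

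Several guidance genes are neighbours in the rat genome. On chromosome 4, Sema3a and Sema3d are adjacent with 0 protein-coding genes between them, Sema3e and Sema3a have 12 between them, and Sema3c and Sema3e have 4. Of the adjacent pair, Sema3a stayed below the threshold in every uninduced array (4.89 to 5.04) while Sema3d lay above it in all 4. Robo1 and Robo2 on chromosome 11 have 1 protein-coding gene between them.

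Over the full time course, the pair LIF and NGAL had the highest count of guidance genes called, led by Epha3 and secreted semaphorins. Averaged over the 6 days (12 arrays against 12), 24 guidance genes were called between LIF and NGAL (51.1%, against 41.7% of all measured genes), 8 higher with LIF and 16 lower (21.5% and 20.3% of all genes). Slit1, counted among the 8, had means below the threshold in all 12 groups compared, so its difference is not measured. Ntn1, counted among the 16, had means below it in 9 of these groups. Epha3 ran from 4.24 to 5.42 (median 4.61) with LIF and from 5.60 to 7.65 (median 6.73) with NGAL, and the 12 arrays on each side did not overlap. Its difference was -2.05 (SE 0.19, adjusted p = 8.2e-08), or -0.92 with means set to the threshold. Sema3d ran from 4.11 to 5.88 (median 4.65) with LIF and from 4.75 to 7.74 (median 6.50) with NGAL, a difference of -1.62 (SE 0.22, adjusted p = 5.08e-06; floored -0.73). With NGAL its arrays read 5.02 and 4.75 on day 1, 5.70 and 6.18 on day 2 and 7.74 and 6.57 on day 3. The lowest NGAL arrays were those of day 1, and 1 of the pair on day 5 was also low (5.44), below the highest LIF array.

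Sema3c ran from 7.17 to 9.68 with LIF and from 8.82 to 10.03 with NGAL, and differed by -1.04 (SE 0.15, adjusted p = 8e-06). Sema3e, the ligand of Plxnd1, stood out with NGAL in mid-course: its arrays read 7.39 and 6.53 on day 3, 7.41 and 7.92 on day 4 and 6.97 and 7.79 on day 5, and 6.21 and 6.95 on day 7. All 12 ANX arrays lay between 5.57 and 6.20. It differed by -0.68 (SE 0.12, adjusted p = 9.66e-05) between LIF and NGAL. Plxnd1 was also lower with LIF (-0.66, SE 0.13), as were Nrp1 (-0.66, SE 0.15), Nrp2 (-0.48, SE 0.12), Slit2 (-0.51, SE 0.11) and Sema6a (-0.997, SE 0.24). Higher with LIF were Robo2 (0.84, SE 0.18, adjusted p = 0.000701) and Sema3f (0.56, SE 0.09, adjusted p = 3.93e-05), whose ranges of arrays overlap between LIF and NGAL. Epha2 (0.40, SE 0.16, adjusted p = 0.0444) lost its call in 15 of 24 fits with an array left out and Sema5a (0.36, SE 0.14) in 13 of 24.

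NGAL against ANX, which shares the NGAL arrays with the comparison above, gave 18 guidance genes (38.3%, against 37.5% of all measured genes), 10 higher with NGAL and 8 lower (15.3% and 22.2% of all genes). Epha3 was higher with NGAL by 1.64 (SE 0.19, adjusted p = 2.07e-06), Sema3d by 1.58 (SE 0.22, adjusted p = 1.33e-05), Epha4 by 1.07 (SE 0.28), Sema6a by 0.90 (SE 0.24) and Sema3e by 0.77 (SE 0.12). Set to the threshold, Epha3 and Sema3d differ by 0.87 and 0.73. Lower with NGAL were Robo2 (-0.73, SE 0.18), Epha2 (-0.72, SE 0.16), Sema3f (-0.59, SE 0.09), Ntn1 (-0.50, SE 0.12) and Slit1 (-0.36, SE 0.09). Slit1 means lie below the threshold in 11 of the 12 groups compared.

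Between LIF and ANX 6 guidance genes were called (12.8%, against 5.01% of all measured genes), 2 higher and 4 lower with LIF (1.63% and 3.37% of all genes). Ntn1 led, from 5.29 to 5.87 (median 5.44) with LIF and from 5.31 to 7.30 (median 6.23) with ANX. It differed by -0.82 (SE 0.12, adjusted p = 0.000118), or -0.52 floored. The highest ANX arrays were 1 of the pair on day 2 (7.11) and 1 of the pair on day 3 (7.30), near the fresh values. The other, dimmer Ntn1 probe sets stayed below the threshold in every group (highest group means 5.05 and 4.62). Sema6d differed by -0.43 (SE 0.11), Ephb3 by 0.33 (SE 0.08) and Plxna4 by 0.33 (SE 0.08). Plxnb2 and Plxna1 differed by about -0.20 and -0.19, and the Plxna1 call was lost in 20 of 24 fits with an array left out. For all 6 the ranges of the 12 arrays overlapped.

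Stroma and muscle markers separated NGAL from both other inducers as well. Of 13 stroma genes 12 were lower with LIF than with NGAL and 12 were higher with NGAL than with ANX, and none was called between LIF and ANX. The mean stroma level ran from 9.49 to 10.34 in the NGAL arrays, 8.07 to 9.50 with LIF and 8.30 to 9.72 with ANX. Of 7 measured skeletal muscle markers 5 were lower with LIF than NGAL and all 7 higher with NGAL than ANX. Their mean level was 10.60 and 10.78 on day 3 of NGAL, 10.66 and 11.62 on day 4 and 9.86 and 11.11 on day 5, the days on which Sema3e was high. The LIF array with the highest Sema3d (day 4 replicate 2, 5.88) and the ANX array with the highest Sema3d (day 3 replicate 2, 6.27) also had the highest muscle marker levels of their inducer (10.27 and 9.03). In the uninduced day 1 arrays Sema3d read 7.45 and 6.94 and muscle markers 7.41 and 7.09. The fresh arrays had Sema3d at 6.50 and 5.75 and muscle markers at 6.16 and 6.23. The lowest NGAL array for Sema3d from day 3 on (5.44) was in the day 5 pair, with muscle markers at 9.86 and 11.11. The part of these cells in the guidance gene differences was not tested.

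Between day 1 and day 7 few guidance genes were called, with 2 arrays against 2 in each comparison. By limma 9, 14 and 9 of the 47 had an unadjusted p under 0.05 with LIF, NGAL and ANX. Epha4 rose by 1.69, 1.97 and 1.40 (SE 0.68 each) without a call. With LIF 2 were called, both higher (4.26%, against 10.9% of all measured genes, 4.39% higher and 6.51% lower). With NGAL 6 were called, 3 in each direction (12.8%, against 15.5%, 6.92% and 8.6%), and with ANX 5, 2 higher and 3 lower (10.6%, against 13.8%, 6.4% and 7.43%). Sema5a rose with LIF and ANX after its early fall. It read 7.86 and 7.49 in fresh tissue, 5.78 and 6.40 on day 1 of LIF and 7.44 and 8.19 on day 7, a rise of 1.72 (SE 0.35, adjusted p = 0.00311). With ANX it went from 6.08 and 6.52 to 7.98 and 8.10, a rise of 1.74 (SE 0.35, adjusted p = 0.00168). The day 1 arrays of LIF and ANX thus lay below fresh, and their day 7 arrays lay near or above it. With NGAL Sema5a read 6.71 and 6.99 on day 1, 7.64 and 7.84 on day 5 and 6.71 and 7.86 on day 7. Its day 7 difference from day 1 with NGAL was 0.44 (SE 0.35), without a call.

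**Figure D4:**
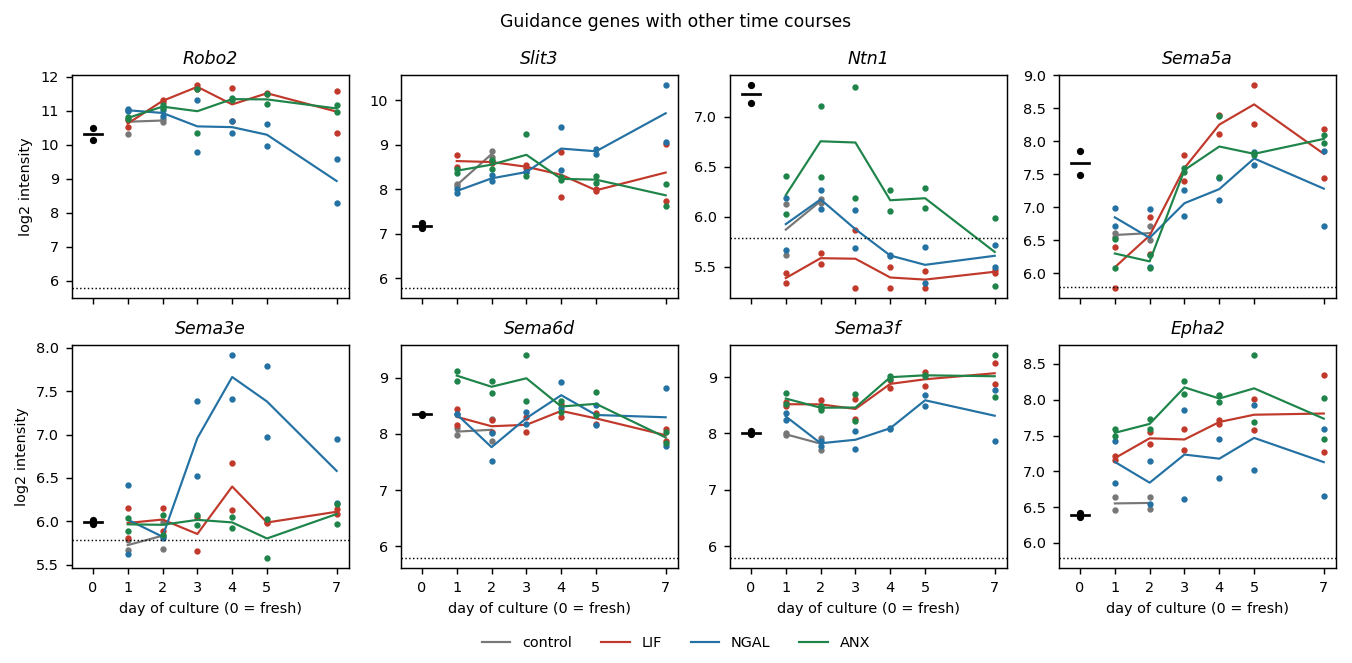
Log2 intensity (vertical axes) by day of culture for 8 guidance genes with other time courses; points are arrays, lines join group means, the black bar is the fresh mean and the dotted line is the threshold at 5.79. Robo2 falls to 8.28 and 9.57 on day 7 of NGAL while Slit3 reaches 10.34 and 9.06, and Sema3e is high with NGAL on days 3 to 5.

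With NGAL the Robo receptors fell and a Robo ligand rose. Robo2 read 11.05 and 10.98 on day 1 and 8.28 and 9.57 on day 7, and fell by 2.08 (SE 0.45, adjusted p = 0.00302). Its other 2 probe sets followed the same course (correlations of 0.962 and 0.980 with it over the 42 arrays, which share both samples and target gene). Robo1 went from 7.98 and 8.05 to 7.12 and 7.40, a fall of 0.76 (SE 0.16, adjusted p = 0.00251). Slit3 read 7.91 and 8.01 on day 1 and 10.34 and 9.06 on day 7, and rose by 1.75 (SE 0.37, adjusted p = 0.00293). With LIF, Robo2 remained between 10.35 and 11.77 on all days and Slit3 between 7.73 and 9.02. Without NGAL day 7 replicate 1, the array with the lowest Robo2 and the highest Slit3, no guidance gene was called between day 7 and day 1 of NGAL. Cell type markers changed in the same arrays. Of 12 nephron epithelium markers 7 rose and 1 fell (Epcam by 3.41, SE 0.51, and Cdh1 by 3.15, SE 0.75, among the risen), and 7 of 13 endothelial markers fell (Sox17 -3.64, SE 0.38; Kdr -1.95, SE 0.39). Of 9 nephron progenitor markers 3 fell, of 13 stroma markers 2 rose and 1 fell, and of 7 skeletal muscle markers 3 rose. Their part in the guidance gene changes was not tested.

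The other day 7 changes were 4 with ANX, 3 with NGAL and 1 with LIF. With ANX, Sema6d fell by 1.10 (SE 0.26, adjusted p = 0.00711) from 9.13 and 8.95 to 7.83 and 8.04. Epha3 went from 5.07 and 6.93 to 4.31 and 4.66, a fall of 1.51 (SE 0.48), of which 0.21 lies above the threshold. The Epha3 call was lost in 3 of the 4 fits with an array left out, and without ANX day 1 replicate 2 the difference was -0.58 and without replicate 1 of that day -2.45. Plxnd1 fell by 1.04 (SE 0.31) and Ephb3 rose by 0.71 (SE 0.205), calls lost in 3 and 4 of those 4 fits. In the same arrays 8 of 13 endothelial markers fell (Sox17 -3.65, SE 0.38; Kdr -1.82, SE 0.39), and 8 of 12 nephron epithelium markers rose and 1 fell (Epcam 4.61, SE 0.51; Cdh1 4.56, SE 0.75). Their part in these changes was not tested. With NGAL, Sema3d rose by 1.90 (SE 0.54, adjusted p = 0.0181; 1.00 floored), Sema4b rose by 0.52 (SE 0.18) and Efnb3 fell by 0.62 (SE 0.17), calls lost in 3, 4 and 2 of 4 such fits. With LIF, Plxna4 rose by 0.66 (SE 0.20), a call lost in 3 of 4. Counts depended on single arrays: leaving out 1 array gave 0 to 4 calls for LIF, 0 to 6 for NGAL and 2 to 3 for ANX.

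Whether the time course itself differed by inducer was tested with limma's F-test of the inducer-by-day terms over the 18 induced groups. No guidance gene was called, and 4 genes in all were (0.0351%); 8 guidance genes had an unadjusted p under 0.05. Robo1 (adjusted p = 0.215), Sema3e (0.299) and Slit3 (0.389) had the smallest values. The direct comparison of the day 7 minus day 1 changes gave 0 guidance genes for each pair of inducers (0.00878% of all genes called for LIF against NGAL, 0% for LIF against ANX and 0.0527% for NGAL against ANX), with 7, 1 and 7 at an unadjusted p under 0.05. The fall of Robo2 and rise of Slit3 with NGAL are therefore not shown to differ from the other inducers by these tests. Without NGAL day 7 replicate 2 the pair NGAL against ANX gave 5, Robo1, Robo2, Sema5a, Sema6d and Slit3, and LIF against NGAL gave 4.

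Genes that carry guidance signals inside the cell were counted in the same way. Of 35 measured effectors, such as the collapsin response mediators (Crmp1, Dpysl2) and actin regulators, 1 was higher and 7 lower with LIF than without inducer, and 3 higher and 6 lower with ANX. These 8 and 9 of 35 stand beside 24% and 20.3% of all measured genes called. Ablim1, an actin-binding protein of netrin signalling, differed by -1.27 (SE 0.25) with LIF and -1.56 (SE 0.25) with ANX, and Enah, an actin regulator, by 0.50 (SE 0.11) with LIF. Crmp1, a semaphorin effector, fell between day 1 and day 7, with differences of -1.22 (SE 0.23) for LIF, -1.40 (SE 0.23) for NGAL and -1.29 (SE 0.23) for ANX. With NGAL 0 effectors were called against control, and 12 of 35 were lower and 5 higher with LIF than with NGAL, beside 20.3% and 21.5% of all measured genes. In uninduced culture 2 were called after 1 day, both lower, and 9 after 2 days, 2 higher and 7 lower, beside 6.06% and 22.2% of all measured genes called.

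Of 18 measured cofactors, such as co-receptors and other ligands, 3 were higher and 6 lower with LIF than without inducer, and 2 higher and 3 lower with ANX. Of all measured genes 11.4% were higher and 12.6% lower with LIF, and 11.2% and 9.12% with ANX. Draxin, a secreted ligand of netrin receptors, was higher with LIF by 2.32 (SE 0.48, adjusted p = 0.00136), and over 6 days by 3.06 (SE 0.28, adjusted p = 5.24e-08) against NGAL and by 2.04 (SE 0.28, adjusted p = 6.21e-05) against ANX. Rgmb, a ligand of the netrin receptor neogenin, rose without inducer by day 2 (1.10, SE 0.23) and was lower with LIF (-0.98, SE 0.16) and ANX (-0.92, SE 0.16). Sdc1, a heparan sulfate proteoglycan, fell without inducer by 1.34 (SE 0.18) after 1 day and was higher with LIF (0.83, SE 0.13) and ANX (0.62, SE 0.13) than without it. Flrt3, a ligand of Unc5 receptors, was lower with ANX (-1.30, SE 0.22). Between NGAL and ANX 5 cofactors were higher and 7 lower with NGAL, beside 15.3% and 22.2% of all measured genes.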

How the data were processed

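RNA of 42 samples was measured on 1-colour Affymetrix rat expression arrays. The values the authors deposited are in the unit intensity, made by the authors with robust multichip analysis (RMA), per the submitters' processing notes. Since the lowest value is 7.6 and the highest 17972 (medians per array 83.3 to 88.4), the scale was read as linear and log2 was taken. RMA normally includes a quantile step, after which a shift of all genes at once would not show. Arrays have no read depth; precision is limited by 2 arrays a group.

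The platform's table names 1 gene for 20832 of 31099 probe sets, several for 436 and none for 9831. All 56 symbols matched RefSeq. A gene was measured when its highest group mean passed the 40th percentile of all values. "Floored" or "set to the threshold" means that group means below it were raised to it.

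R 4.3.3 and limma 3.58.1 estimated 21 group means from the 42 arrays together, leaving 21 residual degrees of freedom, with a variance trend. Differences of inducers on days 1 and 2, of day 7 minus day 1 changes, and single days were added after the data were seen. Alternatives were no filter, a filter at the 60th percentile, renewed quantile normalization, the mean of probe sets, array weights, a replicate block, a fit restricted to the arrays compared, the dap ratio as covariate, and each array left out. Members, gene lists and the naming rule (per comparison the up to 5 largest rises and 5 largest falls, and anchor genes) were chosen with earlier results of these data known; the text also names other called members.

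On simulated data 100 genes were shifted by log2 0.5 and 100 by 1. The fit recovered 51% and 84% for LIF against control and 25% and 65% for control day 2 against fresh. It recovered 21% and 66% for LIF day 7 against day 1 and 93% and 99% for LIF against ANX. In that order it made 6, 6, 2 and 12 false calls. Random error was drawn separately for every gene and array, so no array carried a deviation common to many genes. In the real arrays, replicate differences correlated between groups at -0.646 to 0.742. The simulated rates may therefore be too favourable for these data.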

Additional observations from a re-analysis of the deposited data

Results flagged for a closer look

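In total 7 guidance genes were called between inducers over days 1 and 2 by a direct limma test of the difference, with 47 tested in each pair. Of all measured genes 5.17% were called between LIF and NGAL, 0.623% between LIF and ANX and 2.12% between NGAL and ANX. Between LIF and NGAL these were Epha3 (-1.96), Plxnd1 (-0.73), Robo1 (-0.58), Slit2 (-0.70) and Unc5c (-0.69), all lower with LIF. Between LIF and ANX it was Ntn1 (-1.0004, lower with LIF), and between NGAL and ANX Sema6d (-0.88, lower with NGAL). Epha3 and Robo1 kept their call whichever of the 8 arrays was left out; Slit2 kept it in 4 of these 8 fits, Unc5c in 3 and Plxnd1 in 1, while in the 8 fits of their own pairs Ntn1 kept it in 2 and Sema6d in 4. Robo2, the other measured Robo receptor, was not called in this comparison.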

How the results depend on the processing

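Across the named genes' changes no alternative reversed a direction. Of 1875 fits of named changes under the alternatives named above, 1649 kept the call and 226 lost it. These fits do not include single days, which set 2 arrays against 2. On day 1 and day 2 alone, LIF against control gave 5 and 6 guidance genes, all lower (8.33% and 8.14% of all measured genes called). ANX gave 4 on each day, with 1 higher on day 1 (6.5% and 5.26%). NGAL gave 0 on each day (0.0176% and 0%). Array weights were equal for both arrays of each group, so that alternative cannot single out a poor array. The values below are counts of guidance genes called. With array weights they were 7 for control day 1 against fresh (3 as reported), 27 for control day 2 against fresh (9), 1 for NGAL against control (0), 1 for LIF day 7 against day 1 (2) and 3 for NGAL day 7 against day 1 (6). With only the arrays compared they were 28 for control day 2 against fresh, 1 for NGAL against control, 0 for LIF, 0 for NGAL and 3 for ANX day 7 against day 1. The dap ratio as covariate gave 5 for control day 2 against fresh, 2 for NGAL against ANX on days 1 and 2 (1) and 2 for the change from day 1 to day 7 between them (0). No label says that replicate numbers pair the samples. Correlations of replicate differences between groups ran from -0.646 to 0.742 (median 0.065), with 88 of 210 group pairs over 0.1. Whether some arrays share a batch was not tested. A replicate block gave 4 for LIF day 7 against day 1 and 2 for the NGAL against ANX change, and moved no other count by over 1.5 times. Leaving out 1 array gave 0 to 4 for control day 1 and 3 to 4 for control day 2 against fresh, 11 to 16 for LIF, 0 to 1 for NGAL and 9 to 15 for ANX against control, 0 to 4, 0 to 6 and 2 to 3 for day 7 against day 1 of LIF, NGAL and ANX, 18 to 29 for LIF against NGAL, 2 to 8 for LIF against ANX, 18 to 22 for NGAL against ANX and 0 to 1 for inducer by day. On days 1 and 2 it gave 2 to 4 for LIF against NGAL, 0 to 2 for LIF against ANX and 0 to 2 for NGAL against ANX, and for the changes 0 to 4, 0 to 0 and 0 to 5. The causes were not tested. Of the 47 measured genes 13 lay below the threshold in some group, so their differences there are bounds.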
